A study of Mus musculus with 6 samples.

Results

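The transcripts described here encode tissue factor (F3), its inhibitor (Tfpi), the endothelial protein C receptor (Procr), thrombomodulin (Thbd), the urokinase-type and tissue-type plasminogen activators (Plau and Plat), the urokinase receptor (Plaur) and the serpin protease nexin-1 (Serpine2). They were taken by name, through the platform annotation of the arrays. Of the 8 genes, 7 had a probe set annotated to them, 12 probe sets in all among the 45101 on the arrays, which named 18194 genes, and Serpine2 was not analysed here. A single probe set stood for each of F3, Procr, Thbd and Plaur, while Plau and Plat had 2 each and Tfpi had 4.

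Ovarian granulosa cells came from mice aged 23 days primed 48 h earlier with eCG (equine chorionic gonadotropin, 5 IU), a hormone that drives follicle growth. The knockout mice carried the genotype given as ERK1 knockout and ERK2 fl/fl;Cyp19CRE. By that label ERK1 was knocked out outright and floxed ERK2 was removed where the Cyp19 promoter, active in granulosa cells, drives Cre. The others were labelled wild type. In each genotype 1 array was made without human chorionic gonadotropin (hCG, here 0 h), 1 at 2.5 h and 1 at 4 h after 5 IU of hCG, which mimics the surge of luteinizing hormone that triggers ovulation. The labels do not say how many mice gave the cells of an array. With 6 arrays and no replicates, no comparison of 2 arrays has an error or a p-value. A gene was counted as different when its 2 intensities differed at least 2-fold (1 or more on the log2 scale) and the higher intensity reached 64, a floor just above the array medians of 54 to 55.

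Tissue factor binds coagulation factor VII on the cell surface and so starts the cascade that makes thrombin. Tissue factor pathway inhibitor blocks that complex. Thrombomodulin turns thrombin from a clotting enzyme into an activator of protein C, and the protein C receptor presents protein C to that pair. The plasminogen activators cut plasminogen to plasmin, which breaks down fibrin and matrix, and the urokinase receptor holds urokinase at the cell surface. In the ovary, the plasminogen activators are known for their hormonal control in granulosa cells before ovulation.

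Granulosa markers were over the floor on every array, the dimmest of them at 115 to 158. All of 13 measured markers were over the floor in their mean, and their summed intensity was 128142 to 155326 on the knockout arrays and 78853 to 134598 on the wild type arrays. They did not stay level between groups. At 4 h, 12 of 13 were higher in knockout than in wild type (median log2 difference 0.69, 6 at least 2-fold), and in wild type all 13 were below 0 h (median -1.22, 7 at least 2-fold). Their part in the differences given below was not tested. No marker of any list was at 0, which says nothing about detection, because the lowest intensity of any probe set was 9. Of 7 neutrophil markers 0 reached the floor on any array, and of 7 platelet and megakaryocyte markers 3 did. The median log2 difference of all genes over the floor was 0.14 at 2.5 h and 0.20 at 4 h for knockout minus wild type. It was -0.22 and -0.21 for the wild type responses at 2.5 h and 4 h. Cyclic loess normalization moved these medians to 0.01, 0.03, -0.05 and -0.04. The genotypes are as labelled, since the 2 kinase transcripts themselves were not analysed here. Each group is 1 array, so any array or preparation effect and the group cannot be told apart. In such bulk samples, fewer cells of a type and less RNA per cell cannot be told apart either.

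F3 differed most between genotypes among the 7 genes at 2.5 h and 4 h. Its intensity was 53, 216 and 178 on the knockout arrays at 0 h, 2.5 h and 4 h. At those times the wild type values were 125, 10756 and 7185. Each wild type array after hCG thus stood far above every other array, and the knockout array at 0 h lay under the floor. F3 was 49.8-fold lower in knockout at 2.5 h and 40.4-fold lower at 4 h. At 0 h, F3 was 2.36-fold lower in knockout, a ratio that depends on the background because the knockout value was under 64. By log2 difference, F3 held place 4 from the lowest of 11422 genes at 2.5 h, place 10 of 11467 at 4 h and place 47 of 11346 at 0 h. In knockout, F3 was 4.08-fold above 0 h at 2.5 h and 3.36-fold at 4 h, against 86.0-fold and 57.5-fold in wild type. These knockout ratios depend on the background too, and so do the response differences that follow. On the log2 scale, the knockout minus the wild type response was -4.40 at 2.5 h and -4.10 at 4 h. Between 2.5 h and 4 h, F3 was 1.21-fold lower at the later time in knockout and 1.50-fold lower in wild type.

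**Figure D1:**
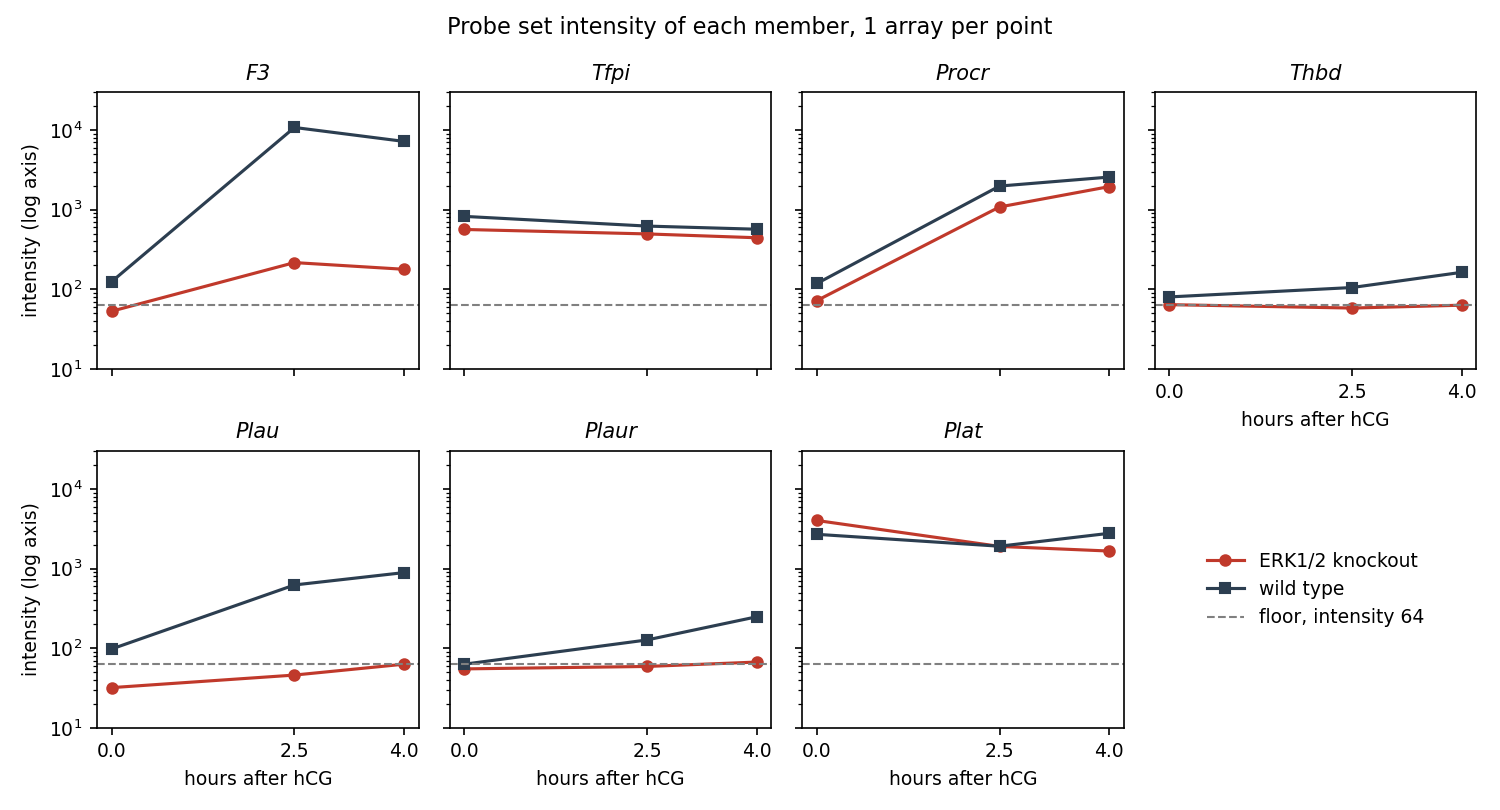
Intensity (log axis) of the brightest probe set of each of 7 genes against hours after hCG, with knockout in red circles, wild type in dark squares and the floor of 64 dashed. Each point is 1 array. F3, Plau, Plaur and Thbd separate by genotype after hCG, Procr is higher after hCG in both genotypes, and Tfpi and Plat stay within 2.42-fold over the 6 arrays.

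Tfpi, the inhibitor of the tissue factor complex, varied little. Its brightest probe set read 563, 495 and 443 in knockout at 0 h, 2.5 h and 4 h, and 822, 621 and 567 in wild type. The knockout value was below the wild type value at each time, by 1.46-fold, 1.25-fold and 1.28-fold, and in 0 of 9 comparisons did it differ 2-fold. The second probe set read 350, 368 and 373 in knockout and 484, 562 and 506 in wild type. The other 2 probe sets did not keep that order. One read 136, 174 and 125 in knockout against 206, 157 and 123 in wild type, so its log2 difference was -0.60 at 0 h and 0.15 at 2.5 h. The dimmest, with a mean log2 of 5.83, lay around the floor at 45 to 75 in knockout and 53 to 64 in wild type.

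Procr, the protein C receptor, was far above its 0 h level after hCG in both genotypes. It read 72, 1079 and 1943 in knockout at 0 h, 2.5 h and 4 h, and 118, 1975 and 2561 in wild type. All of the 4 arrays after hCG stood above both arrays at 0 h. The responses at 2.5 h were 15.0-fold in knockout and 16.7-fold in wild type. At 4 h they were 27.0-fold in knockout and 21.7-fold in wild type, so the log2 responses of the genotypes differed by -0.16 at 2.5 h and by 0.31 at 4 h. The knockout value at 0 h was just over the floor, so the knockout responses and these differences may depend on the background. At each time knockout lay below wild type, by 1.64-fold, 1.83-fold and 1.32-fold, with 0 of these differences reaching 2-fold. The log2 difference at 2.5 h was -0.87 as deposited and -1.02 after cyclic loess, which is past 2-fold.

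Thbd, thrombomodulin, was dim. It read 64, 58 and 63 in knockout at 0 h, 2.5 h and 4 h, and 80, 105 and 163 in wild type. The knockout arrays stayed at or just under the floor, and every wild type array was above every knockout array. At 4 h Thbd was 2.59-fold lower in knockout, and the wild type array at 4 h was 2.04-fold above 0 h. Thbd, Procr and Tfpi are also made by endothelial cells. Of 12 endothelial markers, 7 reached the floor on any array. Their summed intensity was 969 to 1083 on the knockout arrays, and 1072, 1802 and 1401 in wild type at 0 h, 2.5 h and 4 h. Kdr, a receptor for vascular endothelial growth factor, read 299, 276 and 282 in knockout and 205, 452 and 457 in wild type. At 0 h Kdr was higher in knockout, while 4 of the 5 endothelial markers over the floor in their mean were lower (median log2 difference -0.40). Of these 5 markers, 5 were lower in knockout at 2.5 h (median log2 difference -0.90) and 5 at 4 h (median -0.35). The part of endothelial cells in these 3 transcripts was not tested.

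Plau, urokinase, followed the same direction as F3 at a lower intensity. Its brighter probe set read 32, 46 and 63 in knockout at 0 h, 2.5 h and 4 h, and 98, 623 and 891 in wild type. All of the knockout values lay under the floor and all of the wild type values above it. Plau was 3.06-fold lower in knockout at 0 h, 13.5-fold at 2.5 h and 14.1-fold at 4 h, ratios that depend on the background. The second probe set read 30, 48 and 67 in knockout and 74, 344 and 550 in wild type, and put Plau 2.47-fold, 7.17-fold and 8.21-fold lower in knockout. In wild type the brighter probe set was 6.36-fold above 0 h at 2.5 h and 9.09-fold at 4 h. In knockout the corresponding ratios were 1.44-fold and 1.97-fold, and the second probe set gave 1.60-fold and 2.23-fold.

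Plaur, the receptor that holds urokinase, was just under the floor before hCG in both genotypes. It read 55, 59 and 67 in knockout at 0 h, 2.5 h and 4 h, and 63, 127 and 248 in wild type. The 2 wild type arrays after hCG stood above the other 4. Plaur was 2.15-fold lower in knockout at 2.5 h and 3.70-fold lower at 4 h, and the difference at 0 h was 1.15-fold. In wild type it was 2.02-fold above 0 h at 2.5 h and 3.94-fold at 4 h, while in knockout it was 1.07-fold and 1.22-fold above. These ratios to 0 h depend on the background, because both values at 0 h were under the floor. Macrophages also carry urokinase and its receptor. Of 10 macrophage markers 8 reached the floor on any array, with a summed intensity of 1450 to 1952 in knockout and 1376 to 1442 in wild type. The macrophage markers over the floor had median log2 differences of 0.18 at 2.5 h and 0.46 at 4 h for knockout minus wild type, with 5 of 7 above and 2 below wild type at each of these times. Cd14, one of the 2, read 93 and 90 in knockout at 2.5 h and 4 h and 138 and 140 in wild type. The part of macrophages in Plau and Plaur was not tested.

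Plat, the tissue-type activator, behaved differently. It read 4021, 1900 and 1662 in knockout at 0 h, 2.5 h and 4 h, and 2695, 1911 and 2774 in wild type. The knockout array at 0 h was the highest of the 6 and the knockout array at 4 h the lowest. Knockout was 1.49-fold above wild type at 0 h, within 1.01-fold of it at 2.5 h and 1.67-fold below it at 4 h, and none of these differences reached 2-fold. Within knockout, Plat was 2.12-fold below 0 h at 2.5 h and 2.42-fold below at 4 h, whereas wild type was 1.41-fold below and 1.03-fold above. The second probe set was under the floor on every array, at 24 to 25 in knockout and 29 to 39 in wild type, and with the mean of both probe sets the knockout differences from 0 h were -0.51 and -0.64 on the log2 scale. Mouse oocytes are known to store Plat transcripts. The 16 oocyte markers, 14 of them over the floor, summed to 38541, 16623 and 14475 in knockout and to 20989, 13173 and 14166 in wild type. Gdf9, an oocyte growth factor, read 6752, 2655 and 2463 in knockout and 3500, 2053 and 2145 in wild type. Of the 14 oocyte markers over the floor, all 14 stood below their 0 h level at 4 h in knockout, each by at least 2-fold (median log2 difference -1.45). In wild type all 14 also stood below 0 h at 4 h (median -0.47), where Plat was 1.03-fold above it. For knockout minus wild type the oocyte median was 0.85, 0.36 and -0.09 at 0 h, 2.5 h and 4 h, beside 0.58, -0.01 and -0.74 for Plat. The part of oocyte RNA in the Plat values was not tested.

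**Figure D2:**
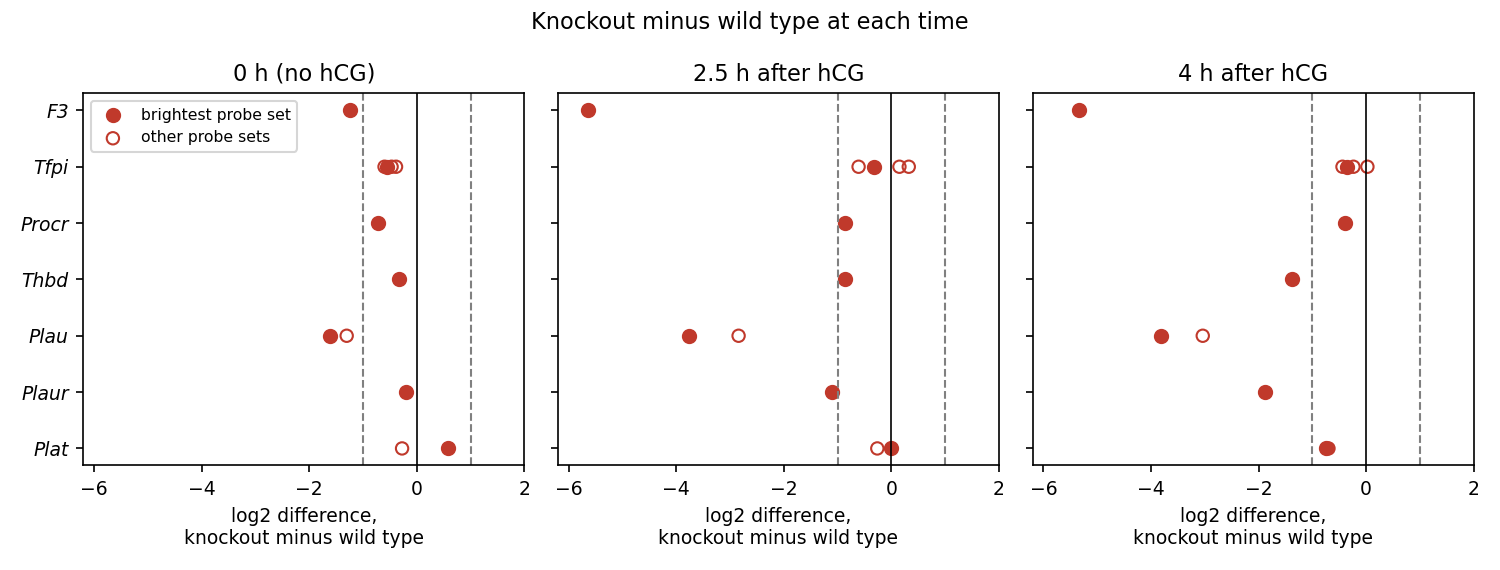
Log2 difference, knockout minus wild type, of every probe set of the 7 genes at each time, with the brightest probe set filled, the others open and 2-fold dashed. F3 and Plau lie past 2-fold at each time, Plaur from 2.5 h and Thbd at 4 h, all on the lower side.

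Counted over the 7 genes, 2 (F3 and Plau) were at least 2-fold lower in knockout at 0 h, where 0.908% of all genes were. At 2.5 h it was 3, with Plaur added, where 3.08% of all genes were lower. At 4 h it was 4, with Thbd added, where 4.15% were lower. None of the 7 was at least 2-fold higher in knockout at 0 h, 2.5 h or 4 h, where 0.811%, 1.48% and 4.99% of all genes were. At these shares, 0 of 7 is not a result about these genes. By the brightest probe sets, 1, 0 and 0 had any positive log2 difference at 0 h, 2.5 h and 4 h. That of Plat at 2.5 h was only -0.01. Over the other 3 Tfpi probe sets it was -0.61, 0.15 and 0.32 at 2.5 h and -0.44, 0.02 and -0.24 at 4 h. The median log2 difference of the 7 genes was -0.55 at 0 h, -0.87 at 2.5 h and -1.37 at 4 h, beside -0.03, 0.14 and 0.20 for all genes over the floor. The 3 comparisons use separate arrays, but the 7 genes were named with earlier results of these data known.

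After hCG in knockout, F3 and Procr were at least 2-fold above 0 h at 2.5 h and 4 h, beside 3.42% and 3.89% of all genes. The F3 value at 0 h in knockout was under the floor. Plat was the 1 gene at least 2-fold below 0 h in knockout, where 3.77% and 4.85% of all genes were. In wild type, F3, Procr, Plau and Plaur were at least 2-fold above 0 h at 2.5 h, 4 of 7 genes, beside 3.54% of all genes. Thbd joined them at 4 h to make 5 of 7, beside 5.47%. None of the 7 was at least 2-fold below 0 h in wild type, where 1.03% of all genes were at 2.5 h and 9.04% at 4 h. Between 2.5 h and 4 h, 0 of 7 differed 2-fold in either genotype, beside 0.995% of all genes in knockout and 3.52% in wild type. In knockout, Plau and Thbd were under the floor at both of these times, so the rule could not call them. At these shares, 0 of 7 is not a result about these genes, either here or below 0 h in wild type. The wild type responses share 1 array without hCG, and so do the knockout responses.

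**Figure D3:**
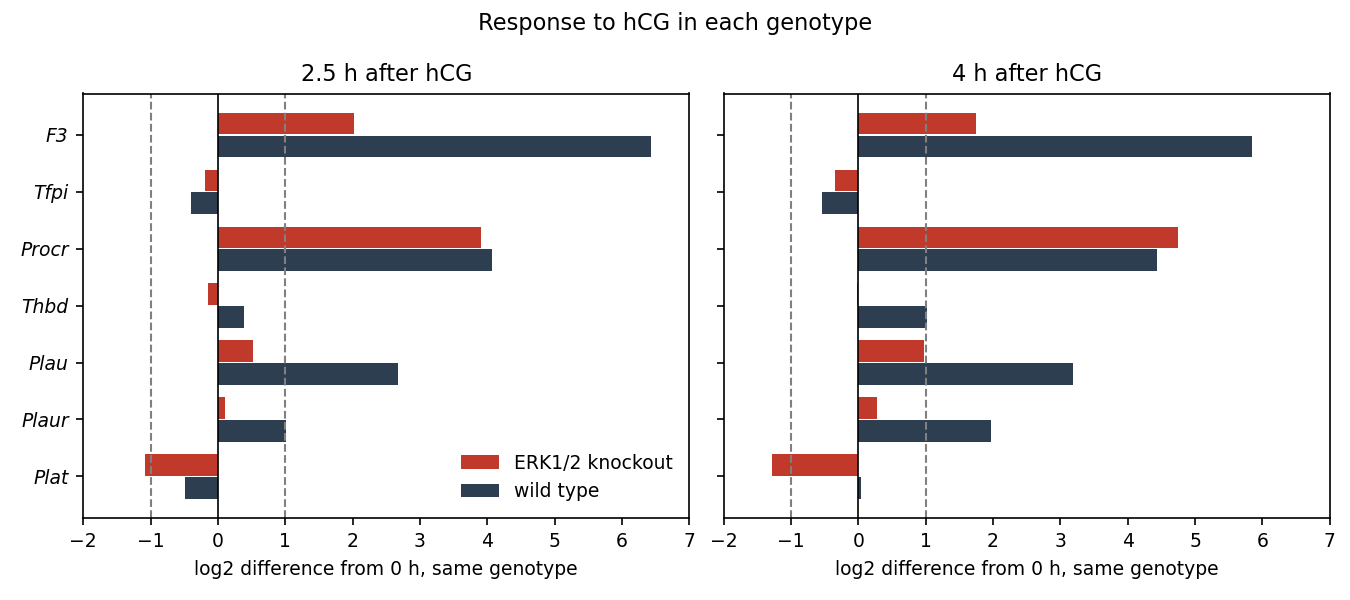
Log2 difference from 0 h of the same genotype at 2.5 h and 4 h after hCG for the brightest probe set of each gene, with knockout bars in red above wild type bars in dark blue and 2-fold dashed. Procr reached 3.91 and 4.75 in knockout beside 4.06 and 4.44 in wild type, while F3 reached 2.03 and 1.75 beside 6.43 and 5.84.

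The only tests that 6 arrays allow pool times or genotypes. They were made with limma on 11153 genes. For the genotype and hCG tests, the residual measures how much an effect varies from time to time or from genotype to genotype. For the test of whether the hCG response differs between genotypes, it is the difference between 2.5 h and 4 h alone. The intervals of that test thus hold nothing on the error of the 0 h arrays. Neither residual is the spread between animals. For the mean of 2.5 h and 4 h minus 0 h over both genotypes, Procr was higher by 4.29 ± 0.16 on the log2 scale (SE), with a limma adjusted p of 0.000973, above both 0 h arrays on 4 of 4 arrays. F3 was higher by 4.01 ± 0.88 (limma adjusted p = 0.0445), also on 4 of 4 arrays. These 2 passed at 0.05 out of 7, beside 10.2% of all genes. The call of F3 was lost with cyclic loess, without the filter on dim genes and when all probe sets of a gene were averaged, and its adjusted p from limma ran from 0.000135 to 0.0986 over 7 alternatives. Plau (1.84 ± 0.46, limma adjusted p = 0.0609) did not pass. It did pass when the arrays at 2.5 h or those at 4 h were left out, with limma adjusted p of 0.0227 and 0.00444, and among genes with a mean log2 of at least 7, at 0.0472. Its range over 7 alternatives was 0.00444 to 0.120. Plat (-0.70 ± 0.27, limma adjusted p = 0.145) passed only when the arrays at 4 h were left out, at 0.0219 in a range of 0.0219 to 0.399. The last section gives the counts of all genes called under each alternative.

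For knockout minus wild type over the 3 times, 0 of 7 genes passed, as did 4 of all 11153 genes (0.0359%), while 1940 had an unadjusted p under 0.05. The log2 difference was -3.07 ± 0.44 for Plau (SE, limma adjusted p = 0.0792) and -4.07 ± 0.83 for F3 (limma adjusted p = 0.149), each lower in knockout at 3 of 3 times. Without the arrays at 0 h, F3, Plau and Plaur passed, with limma adjusted p of 0.00413, 0.00531 and 0.0474. Without those at 4 h, F3 and Plau passed, at limma adjusted p of 0.00295 and 0.000262. Both of these fits called many more of all genes than the 4 given above, and had fewer residual degrees of freedom. Over 8 alternatives the adjusted p ran from 0.00295 to 0.282 for F3 and from 0.000262 to 0.202 for Plau, and over 7 from 0.0474 to 0.528 for Plaur. The test of whether the hCG response differed between genotypes called 0 of 11153 genes in limma (0%), with 1015 at an unadjusted p under 0.05. F3 had the largest estimate of the 7 genes, -4.25 (95% confidence interval -5.32 to -3.18, limma adjusted p = 0.264). Procr had 0.08 (-1.35 to 1.51, limma adjusted p = 0.963), an interval that spans both directions by more than 2-fold.

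The upstream bases of F3, Procr and Plaur are shown because each of these genes was at least 2-fold above 0 h after hCG in wild type and had a window in the promoter table. Of the 7 measured genes, F3, Procr, Plaur and Tfpi had windows in the RefSeq promoter table (GRCm38.p6). Each sequence below is the 250 bases before an annotated start, 5′ to 3′ on the gene's own strand, which is plus for all 3. Capitals mark each match to TGANTCA, the AP-1 element, which reads the same on both strands. The Plaur window lies within the span that the gene table gives to Plaur (chromosome 7, 24460937 to 24475970), and the Procr window runs into that of Procr (chromosome 2, 155751125 to 155755478), so each stands before a start inside its gene's span.
F3 chr3:121723287-121723536: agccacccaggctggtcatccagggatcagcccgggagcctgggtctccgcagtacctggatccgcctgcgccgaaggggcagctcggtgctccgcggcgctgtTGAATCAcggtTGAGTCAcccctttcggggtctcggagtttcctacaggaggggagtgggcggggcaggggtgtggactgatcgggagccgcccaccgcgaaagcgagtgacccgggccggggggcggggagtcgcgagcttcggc
Procr chr2:155750967-155751216: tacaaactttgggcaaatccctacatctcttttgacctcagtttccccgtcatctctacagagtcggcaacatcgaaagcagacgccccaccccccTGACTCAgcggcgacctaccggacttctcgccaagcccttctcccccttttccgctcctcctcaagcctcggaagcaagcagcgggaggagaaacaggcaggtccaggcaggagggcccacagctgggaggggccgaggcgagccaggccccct
Plaur chr7:24462233-24462482: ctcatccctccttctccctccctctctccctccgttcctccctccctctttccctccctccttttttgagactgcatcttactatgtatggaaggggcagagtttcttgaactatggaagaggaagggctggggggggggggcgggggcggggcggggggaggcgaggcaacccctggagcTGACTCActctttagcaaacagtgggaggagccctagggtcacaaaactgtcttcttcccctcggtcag
F3 held 2 matches, whose first bases lay at -146 and -135 from the start, Procr 1 at -154 and Plaur 1 at -69. The 2 Tfpi windows, at separate starts, held 0. Of 32851 windows of the same length, 6.75% held at least 1. The GC box GGGCGG, searched on both strands, had 3 matches in F3, 3 in Plaur, 1 in each Tfpi window and 0 in Procr, and occurred in 32.7% of windows. The EGR element GCGNGGGCG, on both strands, had 1 match in Plaur, overlapping its GC boxes, and 0 in the windows of the other 3 genes (4.70% of windows). The cAMP response element TGACGTCA, which reads the same on both strands, was in 0 of the 5 windows of these genes and in 1.55% of all. A match is a description of the letters and not a site in use.

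Genes were also compared by their whole profile over the 6 arrays, as the root mean square distance between log2 values centred on each gene's own mean, among 11153 genes. Nearest to F3 were Star, the carrier of cholesterol into mitochondria (distance 0.53), Nmu, neuromedin U (0.67), and Chst15, a sulfotransferase (0.84). Star read 69, 635 and 619 in knockout and 304, 14678 and 16259 in wild type. Nearest to Procr were Npr3, the natriuretic peptide clearance receptor (0.43), Slc7a8, an amino acid transporter (0.45), and Osgin2 (0.46). Osgin2 read 511, 4277 and 4622 in knockout and 458, 7550 and 11481 in wild type. Nearest to Plau were Cited4 (0.22), Rragd (0.35) and the hyaluronan synthase gene Has2 (0.37). Cited4 read 37, 46 and 95 in knockout and 110, 895 and 1275 in wild type. Nearest to Plaur were Kcnk5, a potassium channel gene (0.07), Rras2, a Ras-related GTPase gene (0.09), and Vmp1 (0.11). Kcnk5 read 184, 194 and 233 in knockout and 241, 459 and 871 in wild type. The profiles were not scaled, so distances are not comparable between genes of unlike range, such as F3 (log2 range 7.66) and Plaur (2.17). Nmu and Has2 were under the floor on every knockout array and on the wild type array at 0 h. Npr3 was under it on both arrays at 0 h.

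The rest of the pathway was described through 4 lists. Of 19 coagulation factors and cofactors, 3 were over the floor in their mean (Ano6, Vkorc1 and Ggcx), and F7, the partner of tissue factor, read 16 to 19 in knockout and 17 to 19 in wild type. Since 5 of the 19 reached the floor on any array, the 2-fold rule could call a difference in those 5 alone. Between genotypes, 0 of the 5 differed 2-fold at any time. Of all genes, 0.908%, 3.08% and 4.15% were lower in knockout at 0 h, 2.5 h and 4 h, and 0.811%, 1.48% and 4.99% higher. At these shares, 0 of 5 is not a result about these genes. Ano6, a lipid scramblase that exposes the phospholipid on which clotting factors assemble, read 4190, 1880 and 2219 in knockout and 3426, 2003 and 1402 in wild type. It was 2.23-fold below 0 h in knockout at 2.5 h and 2.44-fold below in wild type at 4 h, while its second probe set stayed within 2-fold. F8 was 2.58-fold below 0 h in wild type at 4 h, at 40 and so under the floor.

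Among 3 measured protease-activated receptors, F2r, the thrombin receptor, was the 1 over the floor. It read 1895, 11337 and 9494 in knockout at 0 h, 2.5 h and 4 h, and 2377, 6029 and 6817 in wild type. F2r was 5.98-fold and 5.01-fold above 0 h in knockout, against 2.54-fold and 2.87-fold in wild type. Knockout was 1.88-fold above wild type at 2.5 h and 1.39-fold at 4 h, both under 2-fold. Its second probe set gave log2 responses of 3.03 and 2.53 in knockout and 1.65 and 1.84 in wild type. There, knockout minus wild type was 1.02 at 2.5 h and 0.34 at 4 h.

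Of 9 other anticoagulants, 5 reached the floor on any array, and 3 of these differed 2-fold in at least 1 of the 9 comparisons, beside 23.2% of the 11813 genes that reached the floor on any array. Serpina5, the protein C inhibitor, read 211, 294 and 215 in knockout and 301, 182 and 73 in wild type, so it was 2.95-fold higher in knockout at 4 h. Tfpi2, a matrix-bound protease inhibitor related to Tfpi, went the other way at 26, 35 and 33 in knockout and 36, 61 and 130 in wild type, being 3.94-fold lower in knockout at 4 h against a knockout value under the floor. Serpinc1, antithrombin, was 2.21-fold and 2.27-fold below 0 h in knockout. Pros1, protein S, the cofactor of activated protein C, read 1556 to 1987 in knockout and 1280 to 2030 in wild type.

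Of 16 other plasminogen system genes, 11 were over the floor in their mean. In knockout 1 lay at least 2-fold below wild type at 0 h, 1 at 2.5 h and 2 at 4 h, of 13 that reached the floor on any array, beside the 0.908%, 3.08% and 4.15% of all genes. As far above wild type lay 0 at each time, beside 0.811%, 1.48% and 4.99%. Their median log2 difference was -0.19, -0.20 and -0.15 at the 3 times. Serpinb2, the plasminogen activator inhibitor of type 2, read 12, 18 and 16 in knockout, all under the floor, and 12, 79 and 396 in wild type. It was 4.39-fold lower in knockout at 2.5 h and 24.8-fold lower at 4 h, ratios that depend on the background. Vldlr, a lipoprotein receptor that takes up protease-serpin complexes, read 536, 433 and 341 in knockout and 716, 787 and 1401 in wild type, and was 4.11-fold lower in knockout at 4 h. Of its 6 probe sets, 5 put it at least 2-fold lower there, and the sixth was under the floor. Thbs1, thrombospondin, was 2.29-fold lower in knockout at 0 h (703 against 1607), and the genotypes were within 2-fold of each other after hCG. At 4 h Thbs1 was 2.10-fold above 0 h in knockout and 1.02-fold above in wild type. Its second probe set put that knockout response under 2-fold, at 0.87 on the log2 scale.

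**Figure D4:**
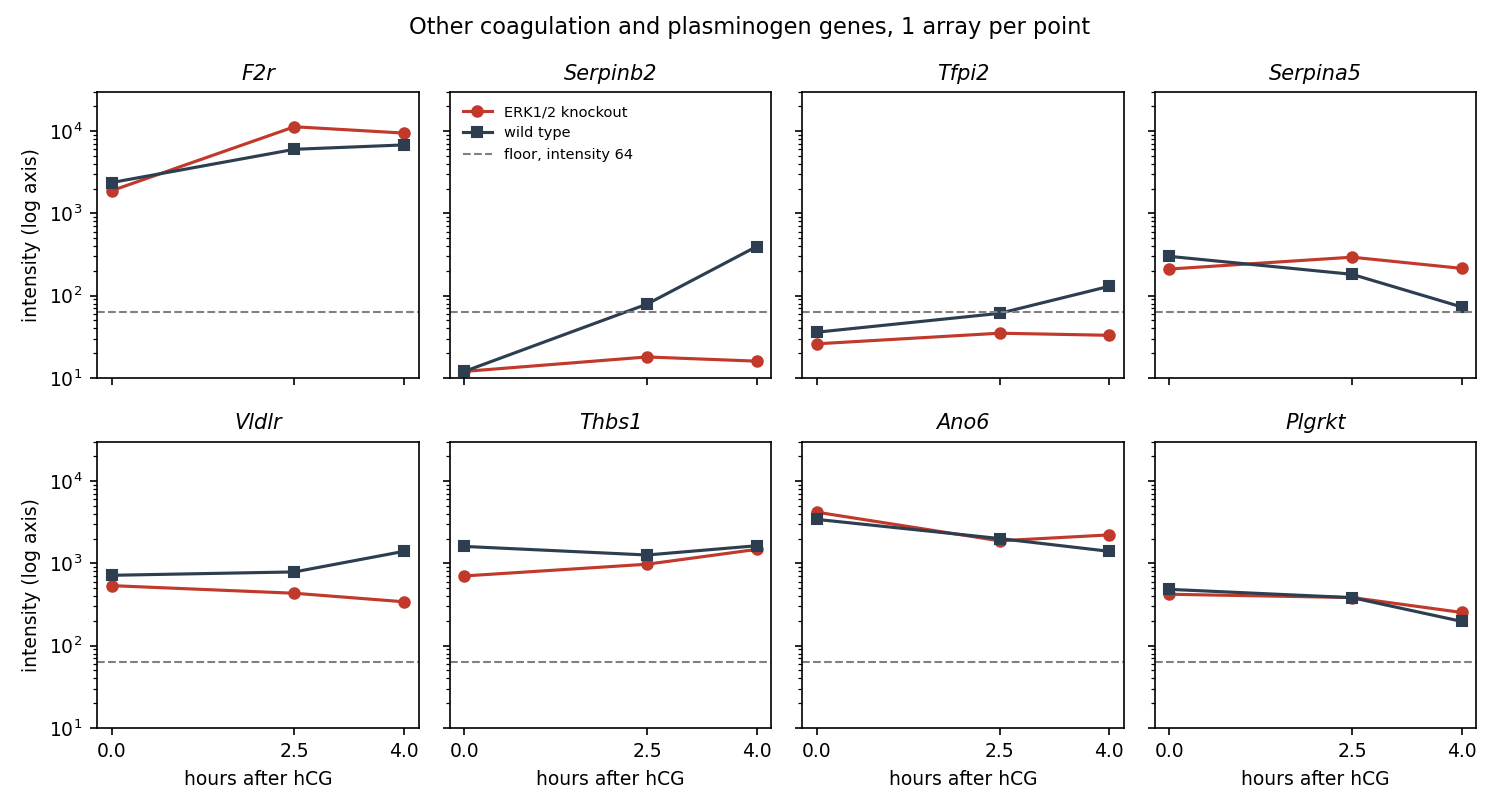
Intensity (log axis) of 8 other coagulation and plasminogen genes against hours after hCG, with knockout in red circles, wild type in dark squares and the floor of 64 dashed. Each point is 1 array. Serpinb2, Tfpi2 and Vldlr are higher in wild type at 4 h, while F2r and Serpina5 are higher in knockout at 2.5 h and 4 h. Of these knockout differences, only that of Serpina5 at 4 h is past 2-fold.

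S100a10, the partner of annexin A2 in binding plasminogen, read 1725, 2141 and 2642 in knockout and 1965, 2475 and 4156 in wild type. At 4 h it was 2.12-fold above 0 h in wild type and 1.53-fold in knockout. Its other probe sets were past 2-fold in both, with log2 responses at 4 h of 1.01 and 1.36 in knockout and 1.37 and 2.96 in wild type. The 3 S100a10 probe sets disagreed on the genotype difference at 4 h, with log2 differences from -0.62 to -2.02. Anxa2 read 2611, 3365 and 4885 in knockout and 2965, 3864 and 5007 in wild type. Plgrkt, a plasminogen receptor, was 2.45-fold below 0 h in wild type at 4 h. Plg, the substrate, read 18 to 22 in knockout and in wild type, under the floor on every array.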

How the data were processed

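RNA of granulosa cells was measured on 6 single-colour Affymetrix arrays, 1 per genotype and time. Per the submitters' processing notes the authors used RMA in affy, of versions not given in the sources used here. Intensities as deposited by the authors are whole numbers on a linear scale from 9 to 59425; log2 was taken here. RMA makes all arrays share nearly the same distribution, which hides any change in the total RNA of a cell. The number of arrays limits the precision.

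Of 45101 probe sets, 34958 had 1 gene symbol, 932 several and 9211 none in the platform annotation; 34754 symbols were found by gene ID in the GRCm38.p6 gene table and 0 changed. The brightest probe set by mean log2 stood for each of 18194 genes, and 11153 had a mean log2 of at least 6. All of 9 comparisons used the rule of at least 2-fold with the brighter array at log2 6 or more; percentages of all genes are over those with either array at that floor. Using limma 3.58.1 in R 4.3.3, 3 contrasts were tested, with Benjamini-Hochberg adjustment at 0.05 over all genes: genotype and hCG in an additive model of time and genotype, and their interaction in a model of 4 cells. Each had 2 residual degrees of freedom on all 6 arrays, and fewer when a time was left out. The fits were tested on simulated data. The genes described, and the pathway lists, were chosen with earlier results of these data known. Named beyond them were list genes past 2-fold in any comparison (at most 6 per list), the 3 nearest profiles of genes ranging over a log2 of at least 2, and a few bright markers. F7, Pros1, Anxa2, Plg, Vkorc1 and Ggcx were named after their values were seen, for their roles or as a small count. Alternatives were the mean of all probe sets, cyclic loess, other floors, an intensity trend in limma and leaving out each time.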

Additional observations from a re-analysis of the deposited data

Results flagged for a closer look

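Thbd was below its 0 h level at both times in knockout and above it at both times in wild type. The log2 responses were -0.14 at 2.5 h and -0.02 at 4 h in knockout, against 0.39 and 1.03 in wild type, so that knockout minus wild type was -0.53 at 2.5 h and -1.05 at 4 h. That difference in direction was not tested at the single times. All of the knockout intensities were 58 to 64, at or just under the floor of 64. Over both times together, the limma interaction was -0.79 (adjusted p = 0.565, range 0.526 to 0.723 over 4 alternatives).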

How the results depend on the processing

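No paired analysis was possible because each group is 1 array and the labels carry no replicate numbers. Of 63 differences between 2 arrays, 24 were at least 2-fold, and none of them changed sign under 4 alternatives. With cyclic loess and with no floor all of the 24 were again at least 2-fold the same way, with the mean of all probe sets 22 were, and with a floor of log2 7 it was 20. The floor of log2 7 left 0 genes at least 2-fold lower in knockout at 0 h, because F3 and Plau were under 128 on both arrays. The mean of all probe sets left 0 genes at least 2-fold below 0 h in knockout, at 2.5 h and at 4 h, because the second Plat probe set is dim. In limma, the genotype difference called 4 genes as fitted. It called 0 with the mean of all probe sets, 0 with cyclic loess, 0 with no filter, 37 with a mean log2 of at least 7, 8 with an intensity trend, and 471, 16 and 245 without 0 h, 2.5 h and 4 h. Of the 7 genes it called 3 without 0 h and 2 without 4 h. The hCG response called 1135 genes as fitted, 701 with the mean of all probe sets, 687 with cyclic loess, 432 with no filter, 736 without 2.5 h, 1462 without 4 h, 1186 with a mean log2 of at least 7 and 1142 with an intensity trend. Of the 7 genes it called 2 as fitted, 1 under each of the first 3 of these alternatives, Procr, 3 without 2.5 h, 4 without 4 h, 3 with a mean log2 of at least 7 and 2 with an intensity trend. The cause of these shifts in limma was not tested. The interaction called 0 genes under all of its 5 alternatives. Signal near background limits Plau, Plaur and Thbd in knockout, F3 in knockout at 0 h, and Serpinb2 and Tfpi2. It also limits the wild type responses of Plaur, whose wild type value at 0 h was 63, under the main floor. Procr at 0 h read 72 in knockout, just over that floor, and 118 in wild type. The size of its knockout responses, and their order against wild type, may thus depend on the background.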
